A study of Mus musculus with 2 samples.

Results

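The 37 genes carried by the mouse mitochondrial genome were followed in liver RNA-seq libraries of 2 newborn mice. They are all rows of the gene tables whose symbol starts with mt-, 37 of 43346 annotated genes, and comprise 13 mRNAs, 2 rRNAs and 22 tRNAs. Both libraries belong to 1 group: strain B6NCrl, liver, postnatal day 0, no treatment and no genetic change named. Pup 3 gave 1 library and pup 1 the other; the labels call each a single liver but carry the same donor entry for both. The input per library was 13 pg of total RNA, size range above 200 nt, given as 1 cell-equivalent. RNA was extracted with mirVana and libraries followed a SmartSeq protocol, which amplifies cDNA, with spike-in RNAs added. These are samples of tissue RNA at the amount of 1 cell, not sorted cells.

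Mitochondrial DNA is a small circle that encodes core subunits of respiratory complexes I, III, IV and V, together with the rRNAs and tRNAs that translate them inside the organelle. Both strands are transcribed as long precursors, and the tRNAs that lie between most genes are cut out to release the mRNAs and rRNAs. The other subunits of these complexes, the mitochondrial ribosomal proteins and the transcription and RNA-processing factors are nuclear genes. Hepatocytes are rich in mitochondria, and newborn liver also holds blood-forming cells. Fragments of mitochondrial DNA have been inserted into nuclear chromosomes, and such copies can share reads with the originals.

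Total expected counts (the authors' estimated reads per gene) were 35973980 in pup 3 and 56959836 in pup 1, of which spike-ins took 3.28% in pup 3 and 3.76% in pup 1. A count of 0 allows up to 0.0862 CPM in pup 3 and 0.0547 CPM in pup 1, for counting error only. Levels are TPM, the transcript share scaled by effective length to a sum of 1000000, with spike-ins removed. With 1 group there is no contrast to test, so values are given for each library with mean ± SD (n = 2), and ratios of pup 3 over pup 1 describe these libraries only. The liver label was checked against marker genes. All 7 hepatocyte markers and all 6 erythroid markers reached 1 TPM in both libraries, and the 4 muscle markers summed to 0 counts in pup 3 and 5 counts in pup 1. Hepatocyte markers held 12.3% of TPM in pup 3 and 15.1% in pup 1, and erythroid markers 16.3% in pup 3 and 13.3% in pup 1. Macrophage (3 of 4), neutrophil (3 of 3) and endothelial (2 of 3) markers reached 1 TPM in both libraries. Fewer cells of a type and less RNA per cell cannot be told apart in such samples, and the part of cell mixture in any level below was not tested.

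The sequences bear on how far each member can be measured, and the ones on which the values turn are shown first, from GENCODE transcripts on GRCm38, 5′ to 3′. A search of all annotated transcripts found 11 nuclear copies that match a member over at least 100 bases at 95% identity or more. Of these, 7 lie side by side on the minus strand of chromosome 1 between positions 24611535 and 24616197, all annotated as unprocessed pseudogenes. This block holds Gm28437, Gm28661 and Gm29216, copies of mt-Co3, mt-Co2 and mt-Co1, and Gm10925, Gm28438, Gm10222 and Gm28439, copies of mt-Atp6, mt-Nd3, mt-Nd4l and mt-Nd4. In 5 of the 7 every base of the copy was identical to the member. Only annotated transcripts were searched, and the bases between them in the block were not used here.

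The first stretch shows how little separates a member from its block copy: the last 60 bases of mt-Co3 (chrM:9331-9390, plus strand) and the last 59 bases of Gm28437 (chr1:24613189-24613247, minus strand). The capital is the final base of mt-Co3, which the annotated copy lacks; none of the 783 bases of the copy differs.
mt-Co3: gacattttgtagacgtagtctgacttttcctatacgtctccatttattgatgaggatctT
Gm28437: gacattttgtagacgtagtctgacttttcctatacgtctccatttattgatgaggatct

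The start of mt-Nd3 (chrM:9459-9518, plus strand) and of Gm28438 (chr1:24613060-24613119, minus strand) differ at 1 base, T3C, counted from the member's first base with the member's base first. Capitals mark that base.
mt-Nd3: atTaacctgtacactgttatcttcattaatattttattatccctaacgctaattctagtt
Gm28438: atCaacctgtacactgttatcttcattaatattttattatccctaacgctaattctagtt

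Gm29216 copies only the 3′ end of mt-Co1. Bases 1054 to 1113 of mt-Co1 (chrM:6381-6440, plus strand) are set against the first 60 bases of Gm29216 (chr1:24616138-24616197, minus strand). The 6 differences, T1056A, C1057T, A1059G, A1060G, C1062A and A1066T on the same counting, are in capitals and all lie within the copy's first bases; the rest of the copy is identical.
mt-Co1: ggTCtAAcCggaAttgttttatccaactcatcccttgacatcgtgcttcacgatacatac
Gm29216: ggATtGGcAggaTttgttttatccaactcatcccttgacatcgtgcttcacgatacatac

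The other 4 copies are less alike, with 95.178% to 97.605% identity, and lie on chromosomes 2 and 13. Bases 435 to 534 of mt-Co1 (chrM:5762-5861, plus strand) are shown against Gm13340 (chr2:22589114-22589213, minus strand), which spans the whole of mt-Co1 with 37 differences; capitals mark 5 of them. This stretch was chosen as the 100 bases with most differences, and a 100-base read from it differs from the copy at several bases. It is not typical: some other 100-base stretches of mt-Co1 are found unchanged in Gm13340.
mt-Co1: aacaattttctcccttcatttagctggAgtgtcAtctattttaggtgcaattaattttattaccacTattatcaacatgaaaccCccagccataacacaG
Gm13340: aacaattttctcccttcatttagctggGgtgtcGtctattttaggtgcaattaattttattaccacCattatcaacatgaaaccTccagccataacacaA

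Neighbouring members also share bases within the mitochondrial genome. The last 60 bases of mt-Atp8 (chrM:7910-7969) are shown with the 43 bases that are also the start of mt-Atp6 in capitals, and the last 60 bases of mt-Nd4l (chrM:10114-10173) with the 7 bases that are also the start of mt-Nd4 in capitals, all on the plus strand. mt-Nd5 and mt-Nd6 overlap by 14 bases on opposite strands, and mt-Atp6 and mt-Co3 by 1 base.
mt-Atp8: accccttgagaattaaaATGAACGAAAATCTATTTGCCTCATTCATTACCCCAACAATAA
mt-Nd4l: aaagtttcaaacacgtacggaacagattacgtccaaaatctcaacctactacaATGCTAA

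The longest and the shortest of the tRNAs, mt-Tl1 (chrM:2676-2750) and mt-Ts2 (chrM:11613-11671), both on the plus strand, are shown because their lengths of 75 and 59 nt bear on every tRNA value below. No base is marked in them.
mt-Tl1: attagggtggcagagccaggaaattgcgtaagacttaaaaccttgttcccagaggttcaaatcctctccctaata
mt-Ts2: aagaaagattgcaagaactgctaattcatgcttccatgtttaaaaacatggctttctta

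Together the members held 3.64% of endogenous TPM in pup 3 and 4.26% in pup 1 (3.95% ± 0.437, SD, n = 2), and 2.26% of endogenous counts in pup 3 and 2.50% in pup 1. The mRNAs held 3.29% of TPM in pup 3 and 3.95% in pup 1 (3.62% ± 0.469). The rRNAs held 0.352% in pup 3 and 0.306% in pup 1 (0.329% ± 0.0325). The tRNAs held 0 in both. The mRNA share was thus about an order of magnitude above the rRNA share in each library, and the order of the classes was the same in both. All 13 mRNAs and both rRNAs reached 1 TPM in both libraries, 15 of 37 members, where 8.20% of all annotated genes did so. Of these 15, 9 were among the 100 genes of highest mean TPM and 2 among the top 20. The 3 nuclear copies Gm28437, Gm28661 and Gm29216 held 1.41% of TPM in pup 3 and 1.96% in pup 1 (1.68% ± 0.383), and the whole chromosome 1 block 1.72% in pup 3 and 2.24% in pup 1. Members and block together came to 5.36% of TPM in pup 3 and 6.504% in pup 1.

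**Figure D1:**
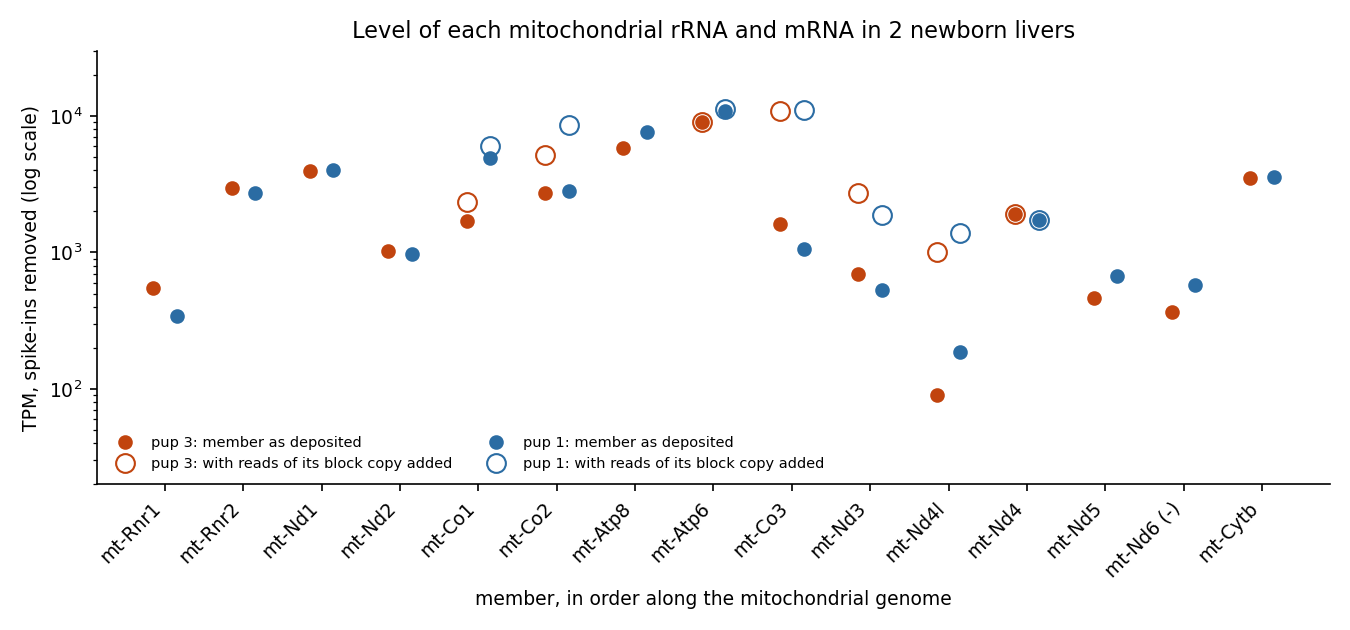
TPM of the 13 mRNAs and 2 rRNAs in pup 3 (left of each name) and pup 1 (right), on a log axis and in order along the mitochondrial genome; (-) marks the minus strand. Filled points are members as deposited and open circles add the reads given to the chromosome 1 copy. mt-Atp6 is the highest filled point in both libraries, mt-Nd4l is the lowest, and mt-Co3 gains the most TPM when copy reads are added.

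The ATP synthase mRNAs were the most abundant members as the authors divided the reads; with copies' reads added, mt-Co3 and mt-Co2 had higher means than mt-Atp8. mt-Atp6 (chrM:7927-8607) encodes the membrane subunit that forms the proton path of complex V with the rotor ring, and mt-Atp8 (chrM:7766-7969) a short peptide of the same membrane part. mt-Atp6 had 8997 TPM in pup 3 against 10890 TPM in pup 1 (9944 ± 1339). Its rank was 13 in pup 3 and 14 in pup 1 among all annotated genes. mt-Atp8 had 5854 TPM in pup 3 against 7622 TPM in pup 1 (6738 ± 1249). Both were lower in pup 3, and their levels did not overlap each other. The ratio of mt-Atp8 to mt-Atp6 was 0.651 in pup 3 and 0.700 in pup 1. Whether these overlapping genes are read from the same RNA was not tested, so the ratio need not compare separate transcripts. The 2 genes share 43 of the 204 bases of mt-Atp8, a stretch shorter than a read of 100 bases. None of the 105 windows of 100 bases in mt-Atp8 lies wholly within another annotated transcript, and its count had a posterior SD of 0 in both libraries.

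Cytochrome b and the subunits of complex I spanned a wide range. mt-Cytb (chrM:14145-15288) encodes the only mitochondrially encoded subunit of complex III, and had 3524 TPM in pup 3 against 3545 TPM in pup 1 (3535 ± 15.02), the most even of the mRNAs. Among complex I subunits, mt-Nd1, at the joint between the membrane and matrix arms, had 3928 TPM in pup 3 against 4007 TPM in pup 1. mt-Nd4, a proton-pumping subunit, had 1909 TPM in pup 3 against 1729 TPM in pup 1. mt-Nd2, another antiporter-like subunit, had 1033 TPM in pup 3 against 968 TPM in pup 1. These 4 genes lay within 1.25-fold between the libraries.

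The remaining complex I mRNAs were lower as the authors divided the reads. mt-Nd3, a small membrane subunit, had 693 TPM in pup 3 against 530 TPM in pup 1. With reads of its copy Gm28438 added, mt-Nd3 had 2743 TPM in pup 3 against 1871 TPM in pup 1, above mt-Nd4 and mt-Nd2 in both. mt-Nd5, the pumping subunit at the end of the membrane arm, had 466 TPM in pup 3 against 674 TPM in pup 1. mt-Nd6, the only mRNA of the minus strand, had 365 TPM in pup 3 against 581 TPM in pup 1. Its neighbour on the opposite strand was at a similar level, with a ratio of mt-Nd5 to mt-Nd6 of 1.28 in pup 3 and 1.16 in pup 1. No source used here says if strand was used in counting. The 14 bases that mt-Nd5 and mt-Nd6 share are fewer than a read holds. None of the windows of either gene lies wholly within another annotated transcript. mt-Nd4l, a small membrane subunit, was the lowest of the 15, with 89.7 TPM in pup 3 against 187 TPM in pup 1. Its ratio to mt-Nd4, whose start it overlaps, was 0.0470 in pup 3 and 0.108 in pup 1. That ratio, too, need not compare separate transcripts. These low values of mt-Nd4l rest on the division of reads with its copy Gm10222: with the copy's reads added, mt-Nd4l had 1004 TPM in pup 3 against 1388 TPM in pup 1 and was not the lowest.

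Base composition set mt-Nd6 apart from the 12 plus-strand mRNAs, a property of sequence and not of level. G made up 28.1% of mt-Nd6 and 5.88% to 16.1% of the others, and C made up 5.97% of mt-Nd6 and 22.1% to 29.97% of the others. The annotated ends of 3 mRNAs, mt-Co3, mt-Nd4 and mt-Cytb, stop at a lone T of a last codon. Such mRNAs are known to gain their stop codon from the poly(A) tail.

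The cytochrome c oxidase mRNAs included the member with the largest ratio between the libraries, mt-Co1. mt-Co1 (chrM:5328-6872) encodes the catalytic subunit of complex IV that reduces oxygen. It had 69913 expected counts and 1688 TPM in pup 3, and 297174 expected counts and 4923 TPM in pup 1 (3305 ± 2287 TPM), a log2 ratio of -1.54. It ranked 68 in pup 3 and 28 in pup 1 among all annotated genes. mt-Co2 (chrM:7013-7696), which takes electrons from cytochrome c, had 2737 TPM in pup 3 against 2818 TPM in pup 1 (2777 ± 57.8). mt-Co3 (chrM:8607-9390), a structural core subunit, had 1617 TPM in pup 3 against 1061 TPM in pup 1 (1339 ± 393). The order of the 3 genes thus differed between the libraries, with mt-Co2 highest in pup 3 and mt-Co1 highest in pup 1. That difference rests on the division of reads with the copies. With the copies' reads added, mt-Co3 was highest, mt-Co2 next and mt-Co1 lowest of the 3 in both libraries.

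The large-subunit rRNA had a higher TPM than the small-subunit rRNA in both libraries. mt-Rnr2 (chrM:1094-2675) had 2966 TPM in pup 3 against 2716 TPM in pup 1 (2841 ± 176). mt-Rnr1 (chrM:70-1024) had 553 TPM in pup 3 against 342 TPM in pup 1 (448 ± 149). The ratio of mt-Rnr2 to mt-Rnr1 was 5.36 in pup 3 and 7.93 in pup 1, although the mitochondrial ribosome holds equal numbers of both. mt-Rnr2 lay below its downstream neighbour mt-Nd1, at 0.755 of it in pup 3 and 0.678 in pup 1. No source used here says how cDNA synthesis was primed or if rRNA was depleted. Neither these ratios nor the class shares above need therefore be those of the RNAs in the tissue.

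The tRNAs had no counts: all 22 were listed at 0 in both libraries. They are 59 to 75 nt long, 14 on the plus and 8 on the minus strand. The tables set effective length to the listed length less 99 nt, the value for reads of 100 bases, and every one of the 28403 features of 99 nt or less had an effective length of 0. None of those features had a count in either library, whatever the RNA class, and 2218 of them are annotated genes. The labels also give RNA above 200 nt. The listed 0 of a mitochondrial tRNA is therefore not a measured level, and the floor for a count of 0 does not apply to it.

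Ordered by mean TPM, the 15 members ran mt-Atp6, mt-Atp8, mt-Nd1, mt-Cytb, mt-Co1, mt-Rnr2, mt-Co2, mt-Nd4, mt-Co3, mt-Nd2, mt-Nd3, mt-Nd5, mt-Nd6, mt-Rnr1 and mt-Nd4l. Of the 14 neighbouring steps in that order, 8 were between genes whose libraries did not overlap and 6 between genes whose libraries did. mt-Cytb, mt-Co1, mt-Rnr2 and mt-Co2 each overlapped the next of these in order, as did mt-Nd3, mt-Nd5, mt-Nd6 and mt-Rnr1. Levels of these neighbours cannot be ranked beyond their spread. Only neighbours were compared in this way. Further apart in the order, mt-Co1 was above mt-Nd1 in pup 1 and below mt-Nd4 in pup 3. Both this order and its steps rest on the authors' division of reads with the copies. With the copies' reads added, mt-Co3 moved from place 9 to 1 and mt-Co2 from 7 to 3. Likewise mt-Nd3 moved from place 11 to 9 and mt-Nd4l from 15 to 11. As a description, the deposited levels had a Spearman rho of 0.914 between the libraries, and their log2 levels a Pearson r of 0.94. These values cover 15 genes that share libraries and read depth.

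Seen from pup 3, 6 of the 15 members were higher and 9 lower than in pup 1 on the TPM scale, and 7 lay within 1.25-fold. Only 2, mt-Co1 and mt-Nd4l, were at least 2-fold apart, against 74.5% of the 8120 genes whose expected counts averaged 10 or more. That background is dominated by low genes. Of genes averaging 300 TPM or more, 20.8% were at least 2-fold apart, and 1 of the 14 members at that level (mt-Co1) was. The median log2 ratio was -0.03 over the 15 members and -0.04 over all 8120 genes, on the log2(TPM + 1) scale. The median size of the log2 ratio, without sign, was 0.38 over members, 0.53 over genes of at least 300 TPM and 2.07 over all genes. Other scalings of the libraries moved every log2 ratio of pup 3 over pup 1 by the same amount: -0.26 with edgeR TMM factors or DESeq2 size factors and 0.20 with spike-in totals. Under each of these, mt-Co1, mt-Atp8, mt-Atp6, mt-Nd5, mt-Nd6 and mt-Nd4l remained lower in pup 3 and mt-Rnr1, mt-Co3 and mt-Nd3 higher, for mt-Co3 only as its reads were divided by the authors. The direction of the other 6, mt-Nd1, mt-Nd2, mt-Nd4, mt-Cytb, mt-Co2 and mt-Rnr2, changed under at least 1 of them.

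**Figure D2:**
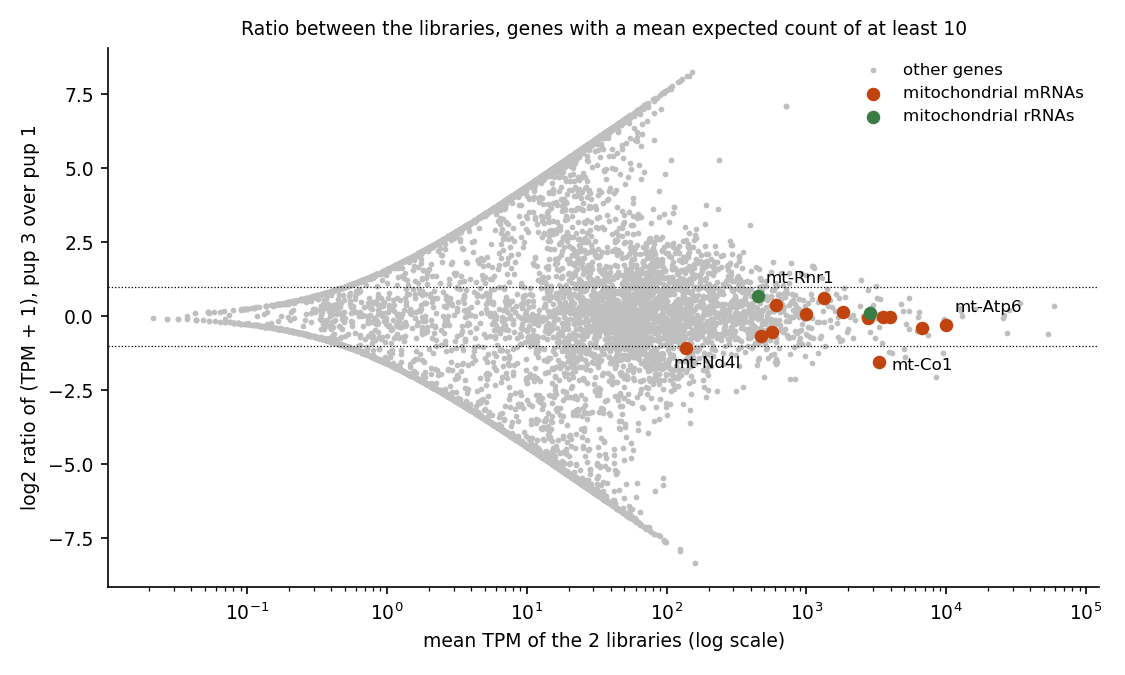
Log2 ratio of TPM + 1, pup 3 over pup 1, against mean TPM of both libraries (log axis) for the 8120 genes whose expected counts averaged 10 or more. Grey points are other genes, coloured points the 13 mRNAs and 2 rRNAs, and dotted lines mark 2-fold; mt-Co1 and mt-Nd4l are the members below the lower line.

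The share of sequence that a member has in common with a copy differed widely among the members. For each member, windows of 100 bases were counted and those found unchanged in another annotated transcript were called shared. For 7 members (mt-Rnr1, mt-Rnr2, mt-Nd1, mt-Atp8, mt-Nd5, mt-Nd6 and mt-Cytb) no window was shared. The authors' posterior SD of the count was at most 0.00013% of the count for these. For mt-Nd2, mt-Co1 and mt-Nd4, 3.19%, 30.8% and 60.8% of windows were shared, and the posterior SD was at most 0.173%. For mt-Co2, mt-Atp6, mt-Co3, mt-Nd3 and mt-Nd4l, 97.6% to 99.9% of windows were shared. These 5 had posterior SDs of 9.27% to 73.3%. mt-Co3 had 1 window of its own in 685, the one that ends on the capital T printed above, and a posterior SD of 63.4% in pup 3 and 73.3% in pup 1. mt-Nd3 had 6 of its own in 249, and its posterior SD was 12.1% in pup 3 and 9.27% in pup 1.

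**Figure D3:**
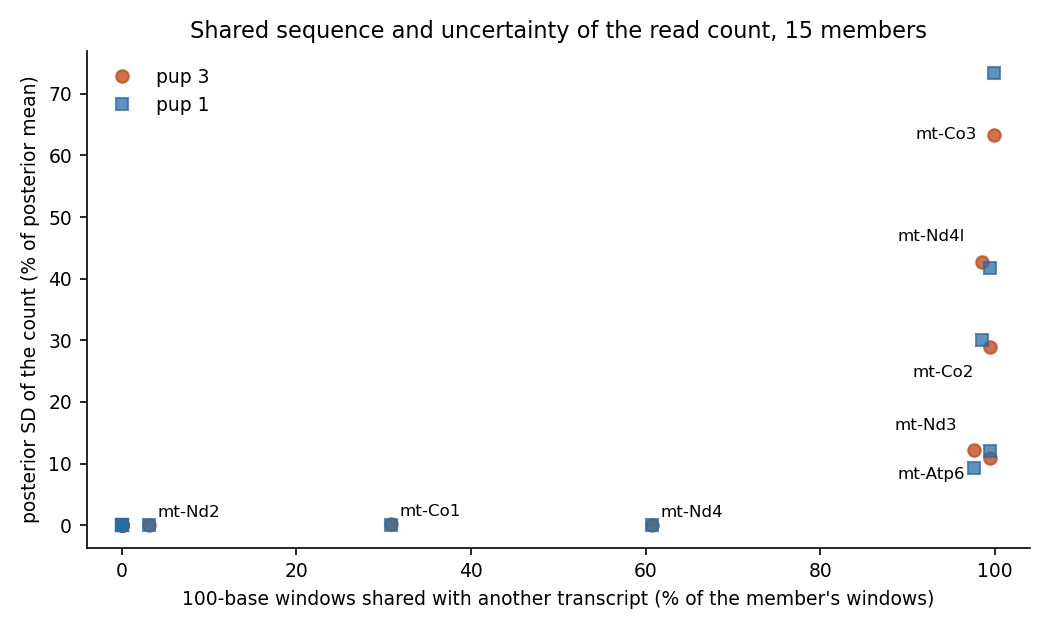
Posterior SD of the read count, as percent of the posterior mean count, against the percent of a member's 100-base windows found unchanged in another annotated transcript, for 15 members in pup 3 (circles) and pup 1 (squares). The 10 members with at most 60.8% shared windows lie at the bottom, and the 5 with 97.6% or more reach 73.3%.

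The deposited estimates gave most reads of some pairs to the copy. Gm28437 received 183097 counts and 9345 TPM in pup 3 and 283735 counts and 9936 TPM in pup 1, which was 85.2% (pup 3) and 90.3% (pup 1) of the reads of mt-Co3 and its copy. With the authors' posterior mean counts that share was 62.6% in pup 3 and 65.9% in pup 1. The authors' credibility bounds for mt-Co3 ran from 1216 to 8283 TPM in pup 3 and from 886 to 8491 TPM in pup 1, and so overlapped almost wholly. No source used here gives the probability that these bounds cover. The pair as a whole had 10948 TPM in pup 3 against 10983 TPM in pup 1 when its reads were set over the length of mt-Co3. The pair was thus nearly equal in the libraries (ratio 0.997), where mt-Co3 alone had a ratio of 1.52.

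For mt-Co2, Gm28661 received 2452 TPM in pup 3 against 5765 TPM in pup 1, 47.1% (pup 3) and 67.1% (pup 1) of the pair's reads. The posterior mean counts put that share at 39.4% in pup 3 and 51.0% in pup 1. The pair had 5176 TPM in pup 3 against 8554 TPM in pup 1, a ratio of 0.605, while mt-Co2 alone was nearly equal. Evenness of mt-Co2 between the libraries therefore held for the deposited division and not for the pair.

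For mt-Co1, the copy covers only the 3′ end and most windows are the member's own. Gm29216 received 2342 TPM in pup 3 against 3859 TPM in pup 1, 27.4% (pup 3) and 17.6% (pup 1) of the pair's reads, and the posterior mean counts gave the same shares. The credibility bounds of mt-Co1 were 1644 to 1671 TPM in pup 3 and 4841 to 4879 TPM in pup 1. They belong to the authors' posterior estimates, and the TPM of mt-Co1 given above lay over the upper bound in both libraries. The same held for 10 of the 15 members in pup 3 and 9 in pup 1, members with no shared window among them. The pair had 2325 TPM in pup 3 against 5971 TPM in pup 1, lower in pup 3 by a ratio of 0.389, close to the 0.343 of mt-Co1 alone. The difference in mt-Co1 was thus present with its copy's reads added.

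The other block copies divided as follows. Gm10925 received 0.642% of the reads of the mt-Atp6 pair in pup 3 and 2.78% in pup 1, and 13.6% (pup 3) and 15.7% (pup 1) by posterior mean counts. Gm28438 received 74.7% of the mt-Nd3 pair in pup 3 and 71.6% in pup 1, with similar posterior shares of 73.9% (pup 3) and 72.7% (pup 1). Gm10222 received 91.1% of the mt-Nd4l pair in pup 3 and 86.5% in pup 1, and 88.9% (pup 3) and 85.7% (pup 1) by posterior mean counts. Gm28439 received 0.00422% of the mt-Nd4 pair in pup 3 and 0 in pup 1, although it matches the first 876 bases of mt-Nd4 exactly. Copies therefore received from almost none to most of the reads of a pair, including pairs with equal identity.

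**Figure D4:**
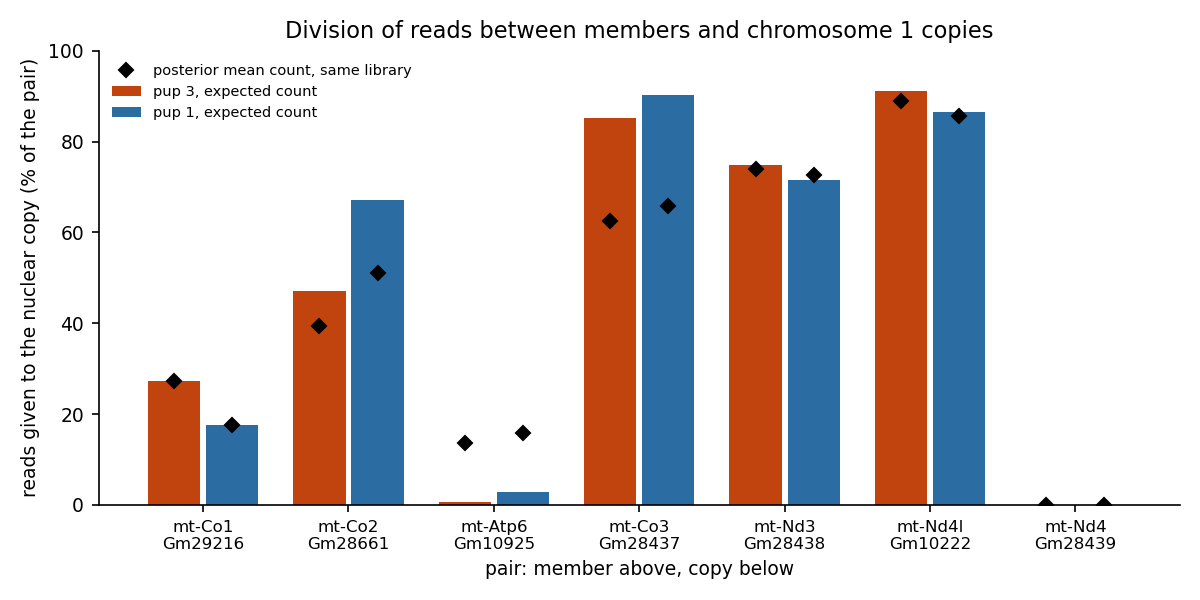
Reads given to each chromosome 1 copy as percent of the reads of member and copy together, in pup 3 (left bars) and pup 1 (right bars); diamonds show the same share from posterior mean counts. Shares run from 0 for Gm28439 in pup 1 to 91.1% for Gm10222 in pup 3, and bars and diamonds differ most for mt-Co3, mt-Co2 and mt-Atp6.

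With each copy's reads added, the order by mean TPM began with mt-Co3, mt-Atp6, mt-Co2 and mt-Atp8. mt-Atp6 then had 9055 TPM in pup 3 against 11201 TPM in pup 1, below mt-Co3 in pup 3 and above it in pup 1. mt-Co2 was below mt-Atp8 in pup 3 and above it in pup 1. mt-Nd3 then had 2743 TPM in pup 3 against 1871 TPM in pup 1. mt-Nd4l was no longer 2-fold apart. The 4 copies outside the block, by contrast, took 50.44 counts in all in pup 3 and 137.24 in pup 1, against 271120 in pup 3 and 518532 in pup 1 for the block. Gm13341, a copy of mt-Co2, had 1.84 TPM in pup 3 against 2.55 TPM in pup 1. Gm13340, the copy of the whole of mt-Co1 with 37 differences, had 0.381 TPM in pup 3 against 1.22 TPM in pup 1. Whether any of the block's reads came from nuclear transcripts cannot be told apart from the sequences that it shares.

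Set beside the listed nuclear subunits, the mitochondrially encoded subunits had a higher median TPM for each complex in both libraries. For complex I the 7 mitochondrial mRNAs had a median of 693 TPM in pup 3 against 674 TPM in pup 1, and the 7 nuclear core subunits a median of 98.9 TPM in pup 3 against 82.8 TPM in pup 1. Within the nuclear list Ndufs7, of the matrix arm, had 343 TPM in pup 3 against 250 TPM in pup 1, and Ndufv2, of the NADH-binding module, had 323 TPM in pup 3 against 242 TPM in pup 1. For complex III, mt-Cytb stood at 6.84 times the median of 9 nuclear subunits in pup 3 and 9.02 times in pup 1. Uqcr11, a small subunit, led that list with 884 TPM in pup 3 against 895 TPM in pup 1. All 41 nuclear subunits of the 4 lists were at 1 TPM or more in both libraries.

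For complex IV, the 3 mitochondrial mRNAs each exceeded the highest of 10 nuclear subunits in both libraries. That highest value was 960 TPM (Cox6b1) in pup 3 and 1023 TPM (Cox6a1) in pup 1. For complex V, both mitochondrial mRNAs exceeded all 15 nuclear subunits, of which Atp5b, the catalytic subunit of the ATP synthase head, had 1446 TPM in pup 3 against 544 TPM in pup 1. For complex I, 6 of the 7 mitochondrial mRNAs exceeded the highest nuclear core subunit in each library, the exception being mt-Nd4l. Nuclear subunits outside the core were not in that list. Of these, Ndufb9 had 667 TPM in pup 3, above mt-Nd5 and mt-Nd6, and 271 TPM in pup 1, below both.

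Summed over the listed subunits of each complex, the ratio of mitochondrial to nuclear TPM was lower in pup 3 for complexes III, IV and V. For complex III it was 0.682 in pup 3 and 0.940 in pup 1. For complex IV it was 1.01 in pup 3 and 2.03 in pup 1, and for complex V 1.79 in pup 3 and 3.09 in pup 1. For complex I it was 7.56 in pup 3 and 7.82 in pup 1, over the 7 nuclear core subunits only. Nuclear subunits outside the core were left out of that sum, so it cannot be set against the ratios of the other complexes. These ratios are taken within a library, so scaling between libraries does not alter them. With the copies' reads added they were 3.08 in pup 3 and 5.89 in pup 1 for complex IV, and 10.2 in pup 3 and 10.1 in pup 1 for complex I. With 1 library per pup, no replicate error is available for the difference within a pup.

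**Figure D5:**
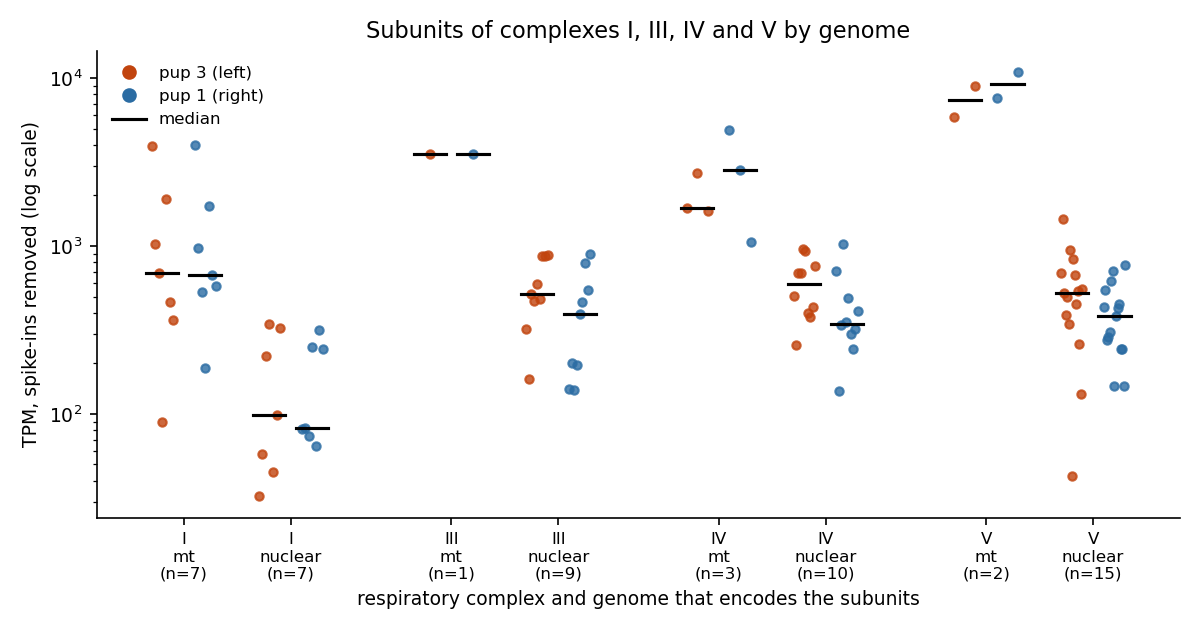
TPM (log axis) of the mitochondrially encoded (mt) and nuclear subunits of complexes I, III, IV and V in pup 3 (left of each pair of columns) and pup 1 (right); points are genes and black bars medians, with n genes below. Nuclear complex I genes are the core subunits only. The mitochondrial medians lie above the nuclear medians for each complex in both libraries.

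Of 8 nuclear genes for transcription of mitochondrial DNA, 1 reached 1 TPM in both libraries, and of 9 replication genes 1 did. These shares are near the 8.20% of all annotated genes and say nothing particular of the lists. Polrmt, the mitochondrial RNA polymerase, was listed at 0 in pup 3 and had 52.4 TPM in pup 1. Tfam, which packages mitochondrial DNA and activates its promoters, was listed at 0 in pup 3 and had 11.4 TPM in pup 1. Mterf2, of the same list, had 46.6 TPM in pup 3 and was listed at 0 in pup 1. Polg, the mitochondrial DNA polymerase, had 44.6 TPM in pup 3 against 1.56 TPM in pup 1. Also of the replication list, Rnaseh1 had 47.9 TPM and Top1mt 47.3 TPM in pup 3, and both were listed at 0 in pup 1. Ssbp1 went the other way, with 0.742 TPM in pup 3 against 37.6 TPM in pup 1. Such gaps between the libraries stand beside the 74.5% of tested genes that were at least 2-fold apart.

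Of 11 genes of tRNA excision and end processing, 2 reached 1 TPM in both libraries. They were Hsd17b10 and Trmt10c, 2 of the subunits of the mitochondrial RNase P that cuts the 5′ ends of tRNAs. Hsd17b10 also acts in amino acid breakdown. Prorp, of the same list, had 0 counts in pup 3 and 3.05 counts (0.0214 TPM) in pup 1. Hsd17b10 had 110 TPM in pup 3 against 259 TPM in pup 1, and Trmt10c 23.3 TPM in pup 3 against 31.3 TPM in pup 1. Of 14 genes of mRNA stability and polyadenylation, 6 reached 1 TPM in both. Lrpprc and Slirp form a complex that stabilises mitochondrial mRNAs, and they differed in opposite directions. Slirp had 215 TPM in pup 3 against 87.7 TPM in pup 1, and Lrpprc 37.2 TPM in pup 3 against 65.2 TPM in pup 1. Rexo2, a mitochondrial ribonuclease of short RNAs, had 132 TPM in pup 3 against 39.6 TPM in pup 1.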

How the data were processed

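The 2 libraries form 1 group, and replicates 2 (pup 3) and 1 (pup 1) are named by the labels. The authors deposited, per library, gene and transcript tables with expected counts (estimated reads, not whole numbers), TPM, posterior mean TPM, and, treated here as a score, posterior SDs and credibility bounds. The deposited isoform percent was 100 for each of the 15 members with counts, whose gene and transcript values were equal. The deposited notes name mm10 and GENCODE M4. Aligner and quantifier were not given in the sources used here; the columns carry RSEM names. GENCODE M21, on the equivalent GRCm38, gave names, coordinates and sequences; 42462 of 43346 gene identifiers matched, and the listed lengths of all 37 members were equal in both.

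Spike-ins were removed and TPM rescaled to 1000000. A gene was called detected at 1 TPM, and log values used a pseudocount of 1. Copies were found with BLAST 2.17.0 and windows were compared exactly. Scripts used Python 3.11.15, pandas 2.3.3, numpy 2.4.6 and matplotlib 3.10.9. DESeq2 1.42.0 and edgeR 4.0.16 in R 4.3.3 gave scaling factors on rounded expected counts, and no count test was run. The 2-fold rule and the listing of base differences were tested on simulated data, and the other steps were not. Of 212 gene list symbols 210 matched, 1 through another symbol; Mtrfr and Mrpl33 did not. Named genes were all members, copies at 1 TPM or more and up to 4 leading members of each list. Block copies below 1 TPM, Ndufb9 and Prorp were named after their values were seen. Of list members at 0 in both libraries, only those of the small ribosomal subunit were named, and those of other lists were not. Members and lists were chosen with earlier results of these data known. Alternatives covered units, totals, lengths, thresholds, scalings and each library alone. PCR reads are not independent molecules, and the spread between these samples may be technical in part.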

Additional observations from a re-analysis of the deposited data

How the results depend on the processing

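Of 76 alternative values over 8 results, 17 could not move by construction: 9 for tRNAs, which are fixed at 0, and 8 shares with a library left out. Of the other 59, 43 stayed within the spread or limit used and 16 moved. Among the 43 were the other count filters for the 2-fold result, which could neither add nor remove a member with counts. With CPM in place of TPM, the share was 2.38% for all members, 2.01% for mRNAs, 0.365% for rRNAs and 0.804% for the 3 nuclear copies. With block copies' reads added (an alternative chosen after seeing the data), it was 5.71% for all members and 5.38% for mRNAs. The median log2 ratio of the mRNAs, -0.04 as reported, was -0.278 with posterior means, -0.308 with copies' reads added, -0.305 with TMM factors, -0.302 with DESeq2 size factors, 0.161 with spike-in totals and 0.0699 with CPM. At 1.5-fold, 5 members were apart (mt-Co1, mt-Co3, mt-Nd4l, mt-Nd6 and mt-Rnr1). Only mt-Co1 (1 member) was 2-fold apart with CPM, posterior means, copies' reads added or spike-in totals, and both mt-Co1 and mt-Nd4l under the other alternatives. The count of 15 detected members was equal at 0.1 and 10 TPM. With 1 library left out, the share of all members was 3.64% to 4.26%; ratios and counts over both libraries could not be computed. No paired analysis was possible because there is only 1 group. No alternative varied depth or input, so their part was not tested.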

Other observations

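Detection of the nuclear genes of mitochondrial translation is read beside the 8.20% of all annotated genes that reached 1 TPM in both libraries. Of 30 proteins of the small mitochondrial ribosomal subunit, 17 reached 1 TPM in both libraries, with 0.202% of TPM in pup 3 and 0.168% in pup 1. Mrps18c had 125 TPM in pup 3 against 150 TPM in pup 1. Mrps21 had 278 TPM and Mrps15 240 TPM in pup 3, and both were listed at 0 in pup 1. Mrps2, Mrps27 and Mrps30 were listed at 0 in both libraries. Of 48 large-subunit proteins matched, 34 reached 1 TPM in both, with 0.364% of TPM in pup 3 and 0.307% in pup 1. Mrpl17 had 311 TPM in pup 3 against 459 TPM in pup 1, and Mrpl30 246 TPM in pup 3 against 259 TPM in pup 1. The summed level of each ribosomal subunit was higher in pup 3 on the TPM scale, by ratios of 1.20 (small) and 1.19 (large), and the ratios were 1.00 and 0.990 with TMM factors.

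Of 11 translation factors matched, 3 reached 1 TPM in both libraries. Gfm1, an elongation factor, had 64.3 TPM in pup 3 against 54.1 TPM in pup 1, and Mtif2, an initiation factor, had 25.7 TPM in pup 3 against 49.9 TPM in pup 1. Tufm, the mitochondrial elongation factor Tu, had 50.03 TPM in pup 3 against 4.34 TPM in pup 1. Of 11 genes of rRNA modification and ribosome assembly, 1 reached 1 TPM in both, a share near that of all annotated genes: Ptcd3, which binds the small subunit, had 15.2 TPM in pup 3 against 49.0 TPM in pup 1.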
